A study of Rattus norvegicus with 10 samples.

Results

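Glypicans are a family of 6 listed genes, *Gpc1* to *Gpc6*, and 4 of them had a row in the table of 12828 genes used here. The family was chosen by a measured value, because *Gpc3* stood first in the authors' deposited diet comparison of these libraries. The values of that comparison are not given here, and the position of *Gpc3* in it is not a result. *Gpc1*, *Gpc3*, *Gpc4* and *Gpc6* were matched by gene name. *Gpc2* and *Gpc5* have no row in the table used here and were not analysed here for their level.

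The libraries came from the arcuate nucleus (ARC) of the hypothalamus of Wistar rat dams, collected at parturition. During pregnancy 5 dams received a diet with folic acid at 5X the recommended dose (5X-FA), and 5 dams received 5-methyltetrahydrofolic acid at the same 5X dose (5X-MTHF). No library from a dam on the recommended dose was analysed here, and ages were not given in the labels. The ARC was cut by hand from frozen brain, and polyadenylated RNA of this mixed tissue was sequenced.

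Glypicans are proteins tethered to the outer face of the cell membrane by a glycosylphosphatidylinositol (GPI) anchor, and they carry long chains of the sugar heparan sulfate. Through the chains and the core protein they bind secreted signals, among them Hedgehog, Wnt, fibroblast growth factor (FGF) and bone morphogenetic protein (BMP) ligands, and they can hold, present or sequester them. In the brain they also act at synapses, where glypicans released by astrocytes promote the formation of excitatory contacts. By sequence the family has a branch of *Gpc1*, *Gpc2*, *Gpc4* and *Gpc6* and a branch of *Gpc3* and *Gpc5*.

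Each level below is the authors' deposited average log2 CPM, the base-2 logarithm of CPM (counts scaled to a common total for each library), as a single value over the libraries of both diets. It carries no SD or n, so neither the spread between dams nor a difference between 5X-FA and 5X-MTHF was obtained. It is not divided by gene length, so it measures a gene's share of counted reads and not its number of transcripts. Levels and percentiles set side by side below are on this scale of reads alone. In such mixed tissue, fewer cells of a type and less RNA per cell cannot be told apart. The study's methods describe a filter on low read counts, so percentiles and "all genes" refer to the table's 12828 genes and not to the whole annotation. Over these genes the level had a median of 4.94, with quartiles of 3.65 and 6.18 and a range from -2.07 to 14.56.

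*Gpc3* (ENSRNOG00000060179), which binds Hedgehog ligands and whose loss in humans causes an overgrowth syndrome, had a level of 4.70 log2 CPM. This equals 25.9 CPM and lies at percentile 44.9, meaning that 44.9% of the genes in the table had a lower level. The gene whose rank in the diet comparison led to this family was therefore near the middle of the range of read levels. *Gpc3* lies at X:139579268-139916883 in the Rnor_6.0 assembly and spans 338 kb, against a median span of 21.5 kb over all genes. The span stands at percentile 98.1. Among the 446 genes of the table on chromosome X, *Gpc3* stood at percentile 43.0 of read level, and those genes had a median of 4.97.

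*Gpc4* (ENSRNOG00000002413), which astrocytes release and which promotes synapse formation, had a level of 4.52 log2 CPM. This equals 23.0 CPM, at percentile 41.0 of all genes. Among genes of the table it is the nearest to *Gpc3*, at X:139354155-139464798, spans 111 kb and belongs to the other branch of the family. The gap between the genes is 114 kb, and no other gene of the table lies in it. The read levels of *Gpc3* and *Gpc4* differed by 0.18 on the log2 scale. Whether that exceeds the spread between dams was not tested, since the pooled value has no spread.

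*Gpc1* (ENSRNOG00000049437), a glypican of neurons and other cells that binds FGF ligands, had a level of 6.33 log2 CPM. This equals 80.6 CPM, at percentile 77.7, and was the highest read level of the 4 genes. It lies at 9:99998275-100026818 and spans 28.5 kb, the shortest of the 4 spans. *Gpc6* (ENSRNOG00000046660), like *Gpc4* a factor released by astrocytes that promotes excitatory synapses, had a level of 2.25 log2 CPM. This equals 4.76 CPM, at percentile 8.47, and was the lowest of the 4. It lies at 15:102164751-103170847 and spans 1006 kb, and 13 genes of the table span at least 1 Mb.

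In reads pooled over both diets, the order was *Gpc1*, *Gpc3*, *Gpc4* and *Gpc6*. The order within each diet was not obtained, and that of *Gpc3* and *Gpc4*, 0.18 apart on the log2 scale, could differ there. The 4 genes together took 134 CPM. *Gpc1* supplied 60.0% of these, *Gpc3* 19.3%, *Gpc4* 17.1% and *Gpc6* 3.54%. These shares describe reads pooled over both diets, and the shares within each diet were not obtained and could differ. The order of transcript numbers could also differ, because transcript lengths were not used here. In order of span, the order was reversed at both ends, with *Gpc1* shortest and *Gpc6* longest, while *Gpc4* was shorter than *Gpc3*. A span includes introns and is not the length of the RNA.

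**Figure D1:**
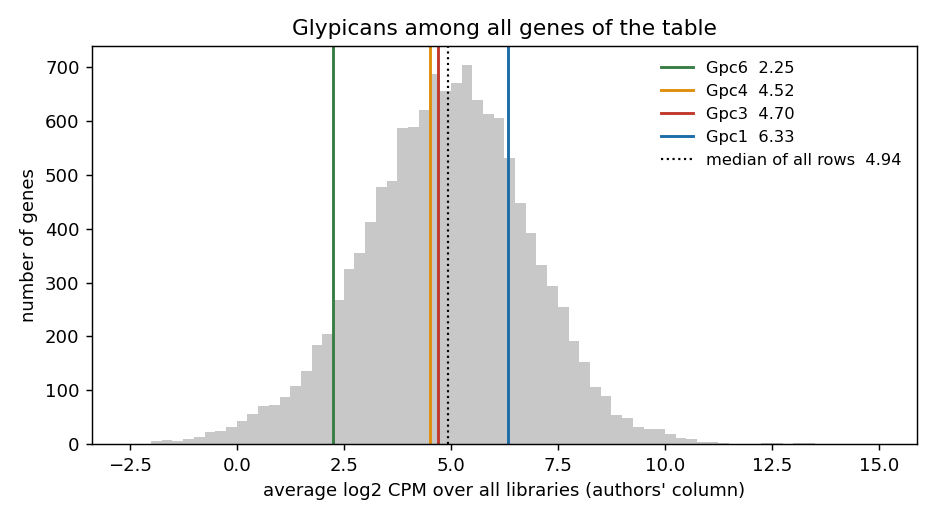
Histogram of the authors' average log2 CPM over all 12828 genes, with the number of genes on the vertical axis; coloured lines mark the 4 glypicans and the dotted line the median of 4.94. *Gpc3* at 4.70 and *Gpc4* at 4.52 lie just below the median, *Gpc1* at 6.33 lies above the upper quartile and *Gpc6* at 2.25 lies below the lower quartile.

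**Figure D2:**
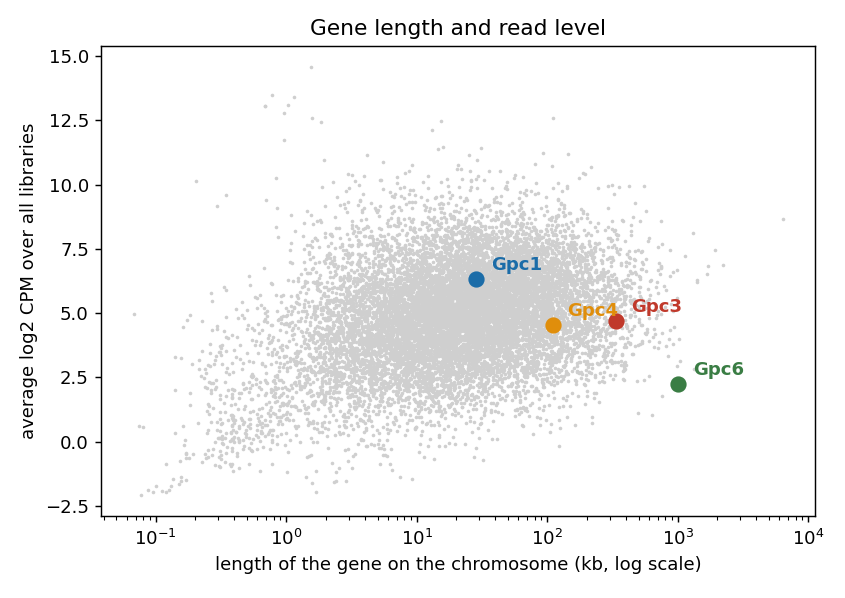
Gene span on the chromosome in kb (log scale, introns included) against average log2 CPM, with a grey point for each gene and coloured points for the 4 glypicans. *Gpc6*, with a span of 1006 kb, lies at the right edge of the cloud and low, *Gpc3* and *Gpc4* are long genes near the middle in level, and *Gpc1* is of more usual span.

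On their chromosomes, the genes of the table nearest to the glypicans were of varied kinds. Next to *Gpc4*, at 381 kb, lay *Hs6st2*, an enzyme that adds sulfate to heparan sulfate, with a level of 5.25 log2 CPM. On the far side of *Gpc3*, at 259 kb, lay *Ccdc160*, with a level of 2.13. *Gpc1* lay between *Cops9*, a subunit of the COP9 signalosome, at 5.56 log2 CPM and *Dusp28*, a phosphatase family member, at 2.81. *Gpc6* lay between *Slitrk5*, a synaptic adhesion gene 5338 kb away with a level of 5.79, and AABR07019383.1, 37.4 kb away with a level of 3.23.

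The starts of *Gpc3* and *Gpc4* are shown because *Gpc3* led to the choice of the family and *Gpc4* is its nearest gene on that side in the table. In the RefSeq order of GRCr8, *Ftl1l1*, *Rpl7-ps10*, LOC103690904 and LOC134484170 lie between them. In the same order, the only entries between *Gpc5* and *Gpc6* lie within *Gpc5*, so *Gpc5* and *Gpc6* are neighbours too. *Gpc5* has no row and so could not appear among the nearest genes of the table given above. Of the 6 glypicans, 4 had a promoter sequence from RefSeq, namely *Gpc2*, *Gpc3*, *Gpc4* and *Gpc5*. *Gpc1* and *Gpc6* had no entry. Each sequence runs from 250 bases before to 50 bases after the gene's start, in build GRCr8, which is not the build of the coordinates above. *Gpc3* is at chrX:137157549-137157848 and *Gpc4* at chrX:136676008-136676307, both on the minus strand, and both are printed 5′ to 3′ on the strand of the gene. Capitals mark the GC box, GGGCGG, which reads CCGCCC where it lies on the opposite strand.
Gpc3: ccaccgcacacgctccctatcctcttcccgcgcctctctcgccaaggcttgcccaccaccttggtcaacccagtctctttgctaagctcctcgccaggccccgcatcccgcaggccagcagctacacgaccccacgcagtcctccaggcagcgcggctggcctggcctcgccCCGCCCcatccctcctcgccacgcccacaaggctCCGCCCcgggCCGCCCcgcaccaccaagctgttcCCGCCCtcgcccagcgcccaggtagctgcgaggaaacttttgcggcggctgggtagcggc
Gpc4: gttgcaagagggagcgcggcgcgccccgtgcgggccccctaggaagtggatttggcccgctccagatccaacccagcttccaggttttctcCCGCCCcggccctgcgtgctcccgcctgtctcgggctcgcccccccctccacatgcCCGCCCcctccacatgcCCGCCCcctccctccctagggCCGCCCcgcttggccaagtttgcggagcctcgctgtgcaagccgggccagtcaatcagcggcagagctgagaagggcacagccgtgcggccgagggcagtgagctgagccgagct

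Both windows held 4 GC boxes, each on the strand opposite to the gene. In *Gpc3* they began at positions -78, -44, -34 and -10, and in *Gpc4* at -159, -103, -86 and -65, where the first base of the transcript is +1. Of 33469 RefSeq promoters of this length, 33.1% held a GC box on either strand and 4.64% held 4 or more. Of the 10623 promoters of genes with a row in the table, the shares were 61.7% and 10.5%. *Gpc2* held 3 GC boxes and *Gpc5* held 1. The other motifs searched on both strands were the CCAAT box, the TATA box (TATAAA) and the E-box (CACGTG), and no match of these in the 4 glypican windows overlapped a GC box. None of them was found in the windows of *Gpc3* and *Gpc4*, while *Gpc2* held 3 copies of CCAAT. Over all promoters, 37.5% held the CCAAT box, 14.2% the TATA box and 6.42% the E-box. Over the promoters of genes with a row, the shares were 37.0%, 6.72% and 9.15%.

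Both windows were rich in G and C. *Gpc3* had a GC content of 71.0% and 27 CpG dinucleotides, and *Gpc4* had 71.3% and 25. The median promoter had 51.7% and 7 CpG, and the median promoter of a gene in the table had 61% and 21. A match to these letters is a description of the sequence, and binding of any factor was not measured.

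The enzymes that build and modify the heparan sulfate chains of glypicans had 24 of 31 listed genes in the table, with a median level of 5.36 log2 CPM. *Sulf2*, which removes sulfate from the chains at the cell surface, had the highest read level, 7.13. *Papss1*, which makes the sulfate donor, and *B3gat3*, which completes the linker between protein and chain, both had 6.59. *Ndst3*, a sulfotransferase of chain synthesis, had the lowest, 3.15. The GPI anchor genes, which make and attach the lipid anchor of glypicans, had 21 of 24 genes with a row and a median of 4.47. *Pigt*, *Pigq* and *Pgap1* were the highest of these in reads, at 6.31, 6.25 and 6.15, and *Pgap3* the lowest, at 2.66. On the read scale, *Gpc1* at 6.33 lay above all 21 of these genes, with *Pigt* close at 6.31. *Gpc1* also lay above 20 of the 24 chain genes.

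Genes that cut, process or take up glypicans had 8 of 9 listed members in the table, with a median of 5.23 log2 CPM. *Notum*, which releases glypicans from their anchor, has no row in the table used here and was not analysed here. *Lrp1*, an endocytic receptor, stood at 9.64, *Adam10*, a membrane protease, at 6.91, and *Gpld1*, a phospholipase that can cleave GPI anchors, at 6.39. *Pcsk5*, a furin-type convertase, was lowest at 3.96.

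The other heparan sulfate proteoglycans, which carry the same kind of chain on different core proteins, had 9 of 11 genes with a row and a median of 7.0 log2 CPM. *Sdc3*, the main syndecan of neurons, *Spock2* and *Spock3* stood at 8.37, 8.30 and 8.04, and *Col18a1*, a basement membrane collagen, was lowest at 4.70. In reads, 8 of these 9 genes lay above the median of all genes, against 1 of the 4 glypicans. The 3 syndecans with a row, *Sdc2*, *Sdc3* and *Sdc4*, together took 502 CPM, beside 134 for the 4 glypicans.

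Among the signals that glypicans bind, the Hedgehog genes had 11 of 16 listed members in the table and a median of 3.98 log2 CPM. *Ptch1*, the Hedgehog receptor, stood at 7.55, *Hhip*, a Hedgehog-binding protein, at 4.69, *Smo*, the signal transducer, at 4.65, and *Gas1*, a co-receptor, lowest at 2.29. *Gpc3* at 4.70 lay above 10 of these 11 genes in reads pooled over both diets. *Hhip* at 4.69 and *Smo* at 4.65 were close to it, and the count within each diet was not obtained and could differ. The Wnt genes had 24 of 40 members with a row and a median of 4.24, led by *Dkk3* at 6.60, the co-receptor *Lrp6* at 5.69 and the receptor *Fzd3* at 5.28, and *Wnt2* was lowest at 1.18.

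The FGF, BMP and insulin-like growth factor (IGF) partners had all 16 listed genes in the table, with a median of 6.14 log2 CPM. *Cd81*, a membrane protein that binds *Gpc3* protein, stood at 9.08, the growth factor *Igf2* at 7.77 and the receptor *Fgfr3* at 6.93, and *Igf1* was lowest at 2.80. The synaptic partners of glypicans and the receptors they recruit had all 10 genes with a row and a median of 7.42. The AMPA receptor subunit *Gria2* stood at 9.40, and the presynaptic phosphatase receptors *Ptprs* and *Ptprd* at 8.66 and 8.59. *Lrrtm4*, a postsynaptic binding partner of *Gpc4* protein, was lowest at 5.23. Each of these 10 genes lay above *Gpc3*, *Gpc4* and *Gpc6* in read level.

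**Figure D3:**
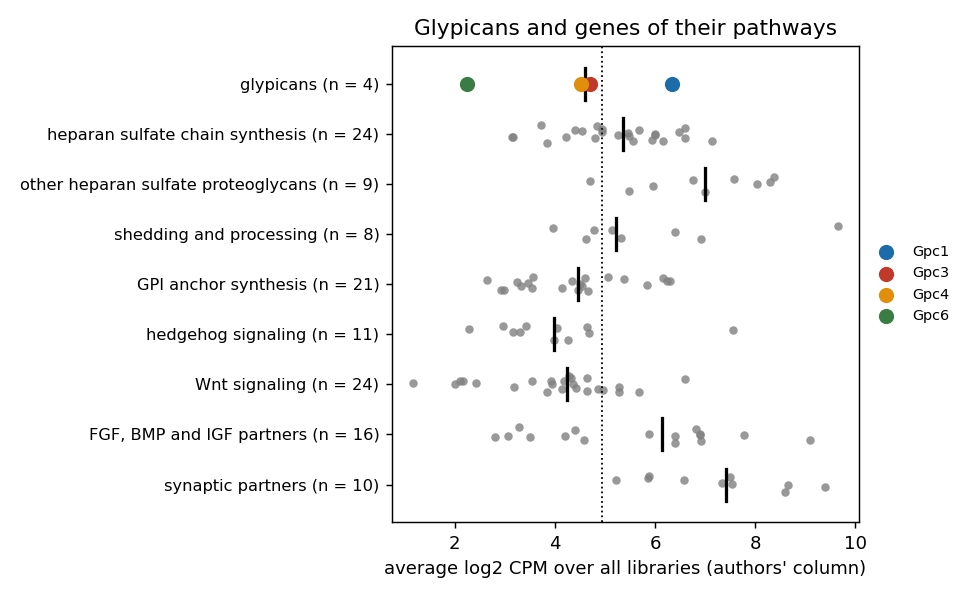
Average log2 CPM of the 4 glypicans (coloured) and of the genes in 8 lists of their pathways (grey, 1 point per gene; points are spread vertically for sight only). Black bars are list medians and the dotted line is the median of all genes, 4.94; the medians run from 3.98 for Hedgehog genes to 7.42 for synaptic partners, and *Gpc3* and *Gpc4* nearly coincide.

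The label of the tissue was checked against marker genes. Of 7 ARC markers, 6 had a row, with a median of 2.88 log2 CPM. *Cartpt* stood at 6.02, *Pomc* at 4.67 and *Tac3* at 4.34, while *Agrp* at 1.42, *Ghrh* at 1.02 and *Kiss1* at 0.08 were near the low end, and *Npy* has no row in the table used here and was not analysed here. Markers of regions outside the hypothalamus were also present, with medians of 5.01 for 5 striatal genes, 7.17 for 3 genes of cortex and hippocampus with a row and 5.28 for 3 thalamic genes. *Ppp1r1b* of striatum stood at 7.07, *Camk2a* of cortex and hippocampus at 8.44 and *Slc17a6* of thalamus at 8.09, and these genes are used in other regions too. The glypican levels are therefore levels of the dissected block, and the part of each region in them was not tested.

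Markers of cell types gave medians of 9.28 log2 CPM for 4 neuronal genes, led by *Snap25* at 10.44, and 9.62 for 5 astrocyte genes, led by *Aqp4* at 10.22. Astrocytes are the source for which *Gpc4* and *Gpc6* are best known. The 5 oligodendrocyte genes had a median of 9.18, led by *Mbp* at 12.59, and the 3 genes of their precursors 5.62, led by *Pdgfra* at 7.01. The median was 6.27 for 3 of 4 listed endothelial genes, led by *Flt1* at 6.28, and 4.32 for 4 microglial genes, led by *Csf1r* at 6.82. It was 5.53 for 3 of 5 listed genes of ependyma and tanycytes, led by *Vim* at 7.32 with *Rax* at 0.08, and 4.66 for 4 of 5 listed genes of meningeal and perivascular fibroblasts, led by *Col1a1* at 5.54. *Pecam1*, *Foxj1*, *Col23a1* and *Col1a2* have no row in the table used here, so these medians cover the members with a row. Which of these cells the reads of *Gpc1*, *Gpc3*, *Gpc4* and *Gpc6* came from was not measured.

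**Figure D4:**
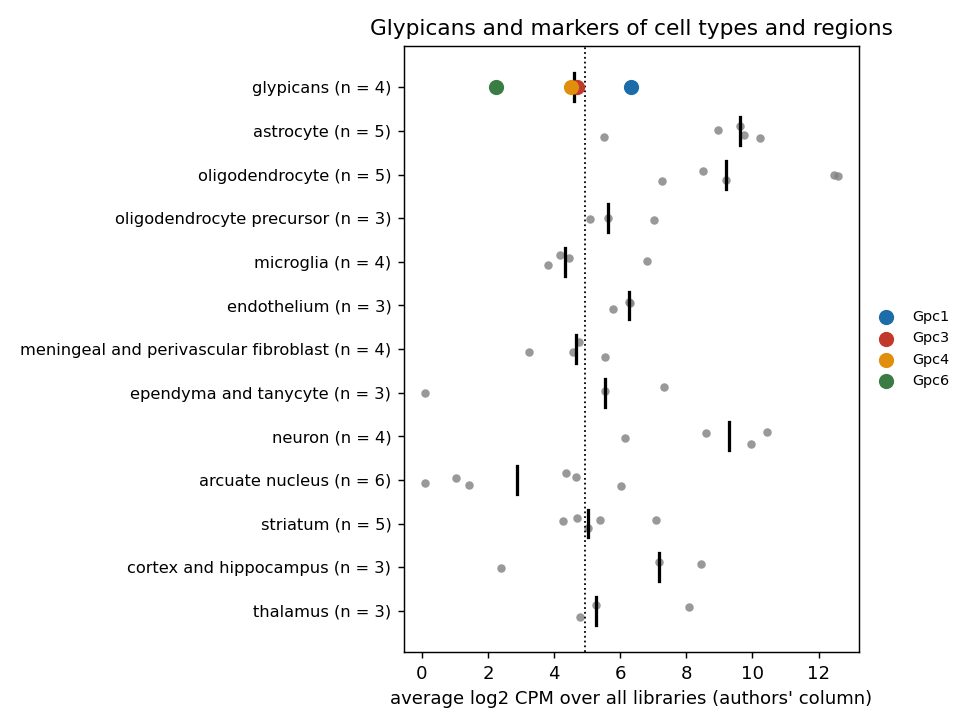
Average log2 CPM of the 4 glypicans (coloured) and of marker genes for 12 cell types and brain regions (grey, 1 point per gene), with list medians as black bars and the median of all genes, 4.94, as a dotted line. *Gpc3* and *Gpc4* lie near the fibroblast, microglial and striatal medians of 4.66, 4.32 and 5.01. The neuronal, astrocyte and oligodendrocyte medians lie above 9, and *Gpc6* at 2.25 lies below the ARC median of 2.88.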

How the data were processed

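RNA-seq was performed on the ARC of 5 5X-FA and 5 5X-MTHF dams. Per the submitters' processing notes, reads were trimmed with Trim Galore 0.5.0, aligned with STAR 2.6.0c to Rnor_6.0 and counted with HTSeq 0.6.1p2, and DESeq2 1.26.0s in R 3.6.1 was named. Per the study's methods, genes with few reads were removed before the diet comparison, and a gene without a row may be one of these. The table still holds genes down to a level of -2.07, so a missing row is not evidence of a low level. Why a given gene has no row was not tested. The authors deposited an average log2 CPM per gene over all libraries, and the step that made it is not given in the sources used here. Its base was checked from the values, since 2 to the power of the column sums to 1002152 over the 12828 rows. A further 10 columns with numbers for names hold per-sample values, match no sample's labels and were not used. The authors' own diet comparison fills 4 columns (a fold change, a test statistic, a p-value and an adjusted p-value). It is titled DietA against DietB, and these groups were taken here to be 5X-FA and 5X-MTHF, in an order that the title does not give. Apart from the rank of *Gpc3*, which led to the choice of this family, that comparison was not used. The column used gives no read total per library, so counting error was not computed. The planned limma test of the diets assumed FPKM per dam, which could not be assigned to dams, and was not run, nor was the planned search for genes correlated with *Gpc3*.

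Glypicans were matched by gene name. CPM, shares, percentiles among all rows, spans, list medians and promoter motifs were computed in Python 3.11.15 with numpy 2.4.6, pandas 2.3.3 and scipy 1.17.1. Figures were drawn with matplotlib 3.10.9. The percentile, its interval and the motif search were tested on simulated data, and the other steps were not. A percentile is the share of rows below a gene's level. Named genes were each glypican, the 3 highest and the lowest member of each of 8 pathway lists, and the nearest row on each side of a glypican. For the 12 marker lists the highest gene was named, with all ARC genes and *Rax*, a choice made once their levels were known. The Wnt ligands were listed as a class and spelled out as symbols later. The members and lists were chosen with earlier results of these data known. Promoters and gene order came from RefSeq (GRCr8).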

Additional observations from a re-analysis of the deposited data

How the results depend on the processing

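The percentile of each glypican's read level was recomputed among protein-coding genes only and among genes that reached 1 on the average log2 CPM scale. That of *Gpc1* moved from 77.7 by less than its 95% binomial interval in both. This interval treats the genes of the table as independent draws, so it holds no spread between dams or libraries. Among protein-coding genes, *Gpc3* moved from 44.9 to 43.4, *Gpc4* from 41.0 to 39.5 and *Gpc6* from 8.47 to 6.85. Among genes that reached 1, the values were 43.3 for *Gpc3*, 39.3 for *Gpc4* and 5.79 for *Gpc6*. Both settings removed mostly genes of low level, which lowers a percentile by construction, and the order of the 4 genes in the pooled value is fixed by their levels. Other settings for the diet difference (another pseudocount, a filter on low values, quantile normalization, leaving out each replicate and a replicate block) were not run, because no per-library column could be assigned to a dam. No paired analysis was possible because the columns carry no replicate numbers that match the labels and no test was run. The column used gives no read total per library, and counting error was not computed for any glypican.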

Other observations

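In the RefSeq gene order of GRCr8, *Gpc3* on chromosome X is followed by *Mir363*, *Mir92a2*, *Mir19b2*, *Mir20b* and *Mir106a*. *Gpc5* on chromosome 15 follows *Mir17*, *Mir18a*, *Mir19a*, *Mir20a*, *Mir19b1* and *Mir92a1*. The order runs by rising coordinate, whatever the strand. Since *Gpc3* is on the minus strand and *Gpc5* on the plus strand, both sets lie on the side of the gene's start. *Mir149* lies within *Gpc1*. *Gpc2* and *Gpc6* had no microRNA gene among the 8 places listed on either side, and *Gpc4* had *Mir363* at the 8th. These are places in an order, not distances, and how often other genes have microRNA genes as close was not computed. Levels of these microRNAs were not analysed here.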
